A study of Saccharomyces cerevisiae with 12 samples.

Results

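Transcript levels of 48 budding yeast genes were compared between ρ0 cells, which lack mitochondrial DNA, and ρ+ cells, which carry it, each without and with glucose. The genes encode 47 enzymes of amino acid synthesis and the transcription activator Gcn4. They were taken by name from the pathways, and no measured value entered the rule. The list was, however, chosen with earlier results of these data known, and it does not hold every gene of these pathways. Each stood on the arrays with a single probe set, so no choice between probe sets was needed. In all, 5656 genes had a probe set, and 5361 of them, with all 48 members, were bright enough to be tested. The 4 groups were ρ0 cells 4 h after a shift out of glucose, ρ0 cells in 2% glucose, ρ+ cells 4 h after the shift, and ρ+ cells in 2% glucose. Each group had 3 arrays, labelled as biological replicates. All cultures were grown at 22 °C in CM medium. Per the labels' protocols, each master culture was split: one part was harvested at once, and the other was spun down, washed in CM and shaken in it for 4 h. RNA came from equal numbers of cells, and its poly(A)+ fraction was labelled. No sample was washed and shaken with glucose, so the lack of glucose cannot be told apart from these steps, and glucose withdrawal below stands for all of them. For the strain background and the origin of the ρ0 cells, the sources used here give nothing.

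Yeast makes all of its amino acids from intermediates of central carbon metabolism and ammonium. Several steps take place in mitochondria, including parts of the arginine, leucine, isoleucine, valine and lysine pathways, and ρ0 cells keep these organelles although they cannot respire. Many of the genes are activated by Gcn4 in what is called general amino acid control. GCN4 is governed mainly at translation, through short reading frames in the leader of its mRNA and the kinase Gcn2, so that its transcript level is not a measure of the protein. Retrograde signalling in cells with defective mitochondria also acts on the supply of 2-oxoglutarate and glutamate, from which the nitrogen of other amino acids is drawn.

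The measured value was the signal of a probe set, in arbitrary units, on arrays whose trimmed means were equal as deposited (100.1 on all). The signals therefore report shares of the RNA, and fewer transcripts of a gene per cell cannot be told apart from a change in the rest of the RNA. All 48 members exceeded the detection level of 5.82, the 25th percentile of all signals, on all 12 arrays, with mean signals over the arrays between 16.7 for ARG8 and 2250.2 for HOM6. OLI1, a gene of mitochondrial DNA, was measured to check the strains and gave between 0.196 and 0.435 on the 6 ρ0 arrays and between 100.3 and 159 on the 6 ρ+ arrays. The mean log2 signal of the ribosomal RNA controls was 8.35 ± 0.52 in ρ0 without glucose and 7.52 ± 0.38 with it, and 8.61 ± 0.11 in ρ+ without glucose and 7.29 ± 0.28 with it (SD, n = 3 each). The ratio of 5′ to 3′ signal for SPT15, which falls when transcripts or cDNA are shortened, was 0.140 ± 0.0419 in ρ0 without glucose and 0.249 ± 0.131 with it, and 0.188 ± 0.0058 in ρ+ without glucose and 0.319 ± 0.0698 with it. The ribosomal signal was thus higher and the ratio lower without glucose in each strain, and their part in the results was not tested. A hybridization control, CreX, had its lowest mean signals, 285 and 487, on ρ0 arrays (replicate 2 in glucose and replicate 1 without it), and those of the other arrays lay between 525 and 869.

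Without glucose, 20 of the 48 members were higher in ρ0 than in ρ+ and 0 were lower, against 20.6% higher and 9.4% lower among all 5361 genes tested with limma (an adjusted p below 0.05 counts as passing). The 20 are 41.7% of the members. At an unadjusted p below 0.05, 24 were higher and 1 lower, but the share of all genes at that threshold was not counted. The median log2 difference of the members was 0.46, against 0.21 for all genes. On 26 members the 3 ρ0 arrays all lay above the 3 ρ+ arrays, and on 0 they all lay below, against 31.4% and 13.5% of all genes. By group means, 29 members were highest in ρ0 without glucose and 29 were lowest in ρ+ without glucose. These are 60.4% of the members in each case, against 27.1% and 47.1% of all genes. For 15 members both held, which is 31.25% of them, against 12.7% of all genes.

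The count of 20 depended on the scaling of the arrays. It was 15 after quantile normalization (9.51% of all genes higher), 8 after centring on the median (8.24%) and 5 when arrays were scaled to poly-A controls (5.28%), and 1 member was lower under each of the first 2. None of the 20 changed sign. The count was 12 without the ρ0 glucose-free array of replicate 2 (15.5% of all genes higher). It was 13 without the ρ+ glucose-free array of replicate 3 (14.1%).

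In glucose 4 members were higher in ρ0 and 1 was lower, against 5.0% and 1.45% of all genes. The median of the members was 0.08, against 0.13 for all genes. The higher ones were ARG7, HIS7, LYS2 and SER3, and the lower one was ARG3. All ρ0 arrays lay above all ρ+ arrays for 11 members and below them for 7, against 22.6% and 8.06% of all genes. Without the ρ+ glucose array of replicate 3 the number higher was 1, the lowest with 1 array left out (2.28% of all genes). Without the ρ0 glucose array of replicate 3 it was 9, the highest (4.98%). After median centring 2 were higher and 2 lower (2.2% and 2.98% of all genes), and with poly-A scaling 4 and 0 (3.86% and 0.28%).

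After glucose withdrawal in ρ+ cells 12 members were lower and 1, TRP5, was higher, against 22.3% lower and 10.5% higher among all genes. The share lower, 25%, was thus near that of all genes, and the medians were −0.22 and −0.19. Glucose-free arrays all lay below the glucose arrays for 24 members and above them for 6, against 35.1% and 16.5% of all genes. In ρ0 cells 1 member, LYS1, was higher after the same step and 2, ARO7 and ILV5, were lower, against 4.59% higher and 12.4% lower of all genes. Here the median of the members was 0.12 and that of all genes −0.11, and without overlap 3 lay below and 6 above, against 21.2% and 9.44% of all genes. None of these 3 calls in ρ0 held in a fit to the 2 groups alone. After median centring 7 members were lower and 3 higher in ρ+ (10.2% and 15.1% of all genes). With the same centring 0 were lower and 6 higher in ρ0 (7.13% and 8.28%). With poly-A scaling 3 were lower and 1 higher in ρ+ (5.35% and 8.19%), and 1 lower and 0 higher in ρ0 (7.7% and 1.14%).

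Whether the responses of the strains differed was tested as an interaction. The response was higher in ρ0 for 2 members, LYS9 and ARO2, and lower for 0, against 1.57% and 5.35% of all genes. At an unadjusted p below 0.05 it was higher for 12 and lower for 0. The sign of the difference was positive for 39 of the 48 members. The share of all genes was counted neither at that unadjusted threshold nor by sign. The median difference of the 48 members was 0.35, against 0.09 for all genes. The count of 2 was between 0 and 7 when 1 array was left out, with 0 reached without the ρ0 glucose array of replicate 3, without the ρ+ glucose-free array of replicate 2 or of replicate 3, and without any of the ρ+ glucose arrays. Over the fits with 1 array left out, 0.597% to 2.5% of all genes had a higher response in ρ0. The 5 comparisons share arrays, so their values are given side by side and are not independent of each other.

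**Figure D1:**
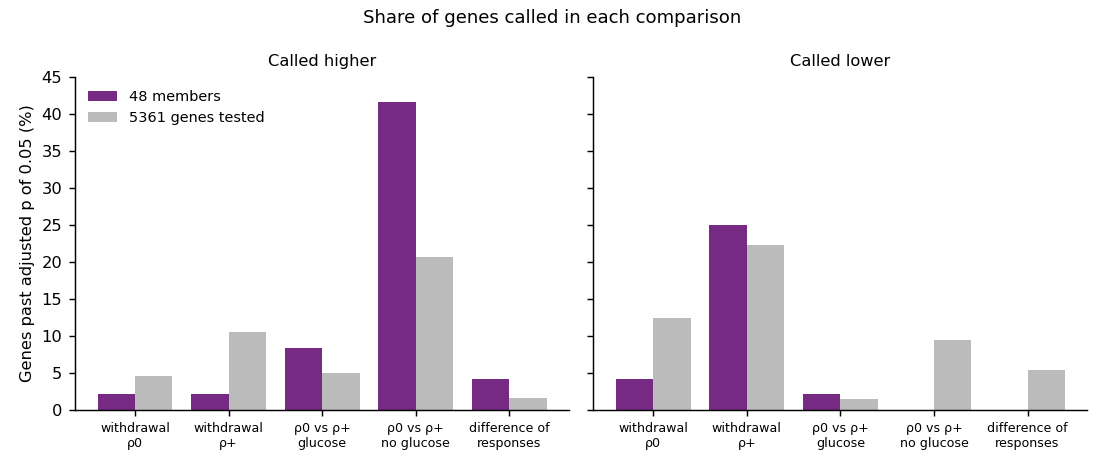
Share of genes past an adjusted p of 0.05 (vertical axis, percent) in each of the 5 comparisons, for the 48 amino acid synthesis genes (purple) and all 5361 genes tested (grey), with higher genes on the left and lower genes on the right. The members stand at 41.7% against 20.6% for higher levels in ρ0 without glucose, and at 25% against 22.3% for lower levels after withdrawal in ρ+.

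**Figure D2:**
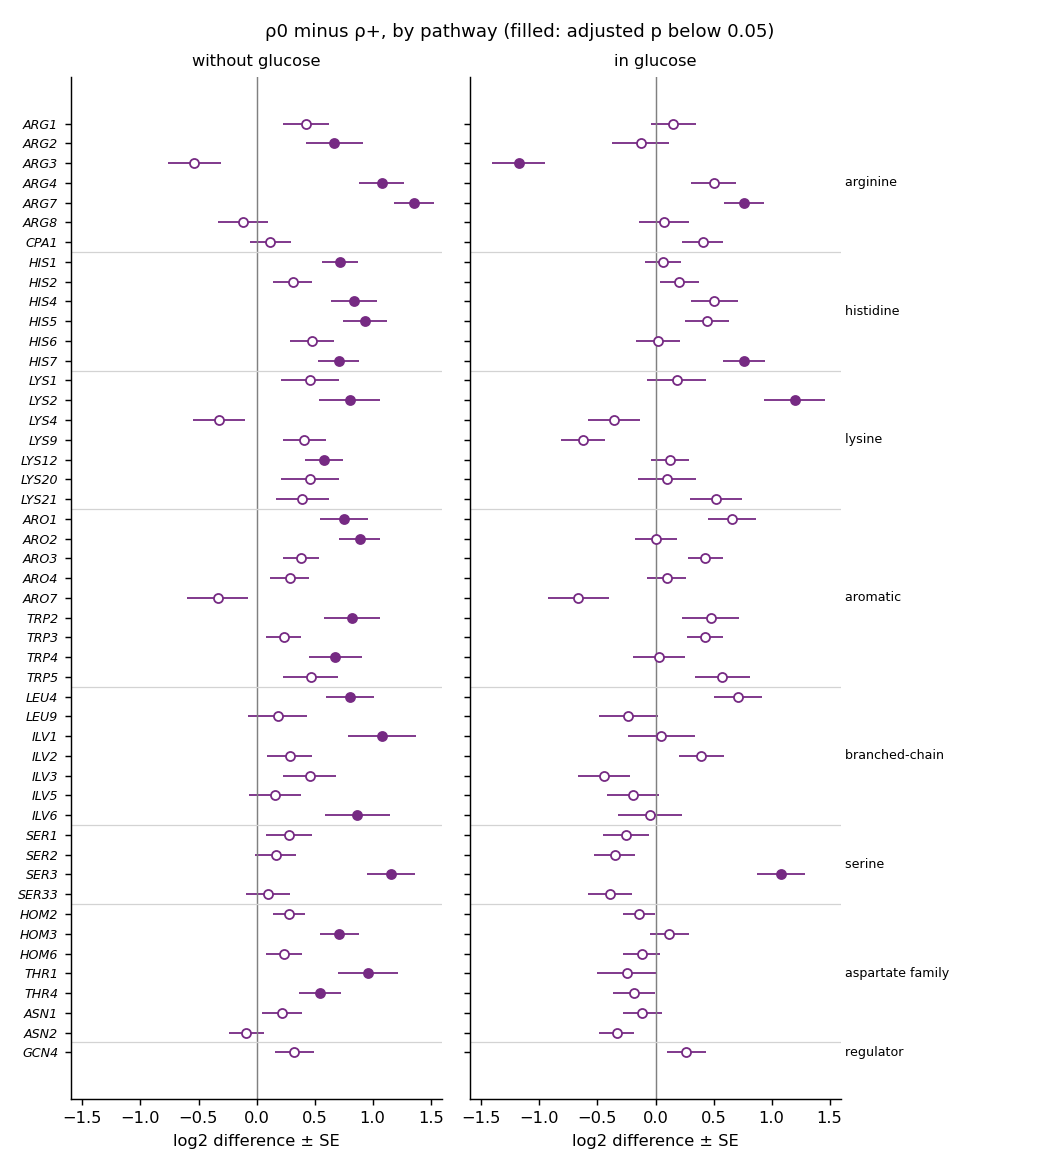
Log2 difference of ρ0 minus ρ+ (horizontal axis, ± SE) for each of the 48 members, by pathway, without glucose on the left and in glucose on the right. Filled points passed an adjusted p of 0.05: 20 without glucose, all above 0, and 5 in glucose, of which ARG3 is below 0.

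GCN4 itself passed the test in none of the 5 comparisons. The GCN4 signals in ρ0 cells were 1571, 1673 and 1352 without glucose and 1361, 1945 and 1190.1 with glucose. GCN4 signals in ρ+ cells were 1182, 1352 and 1128 without glucose and 1282, 1200.2 and 1177 with glucose. The ρ0 arrays spanned the widest range, the highest value came from replicate 2 of ρ0 in glucose, and the groups overlapped in every comparison. The log2 difference between ρ0 and ρ+ was 0.33 ± 0.17 (SE) without glucose (adjusted p = 0.152) and 0.27 ± 0.17 in glucose (adjusted p = 0.355). The differences after withdrawal were 0.06 ± 0.17 in ρ0 and −0.00 ± 0.17 in ρ+ (adjusted p = 0.846 and 0.993).

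Arginine is built from glutamate through acetylated intermediates in mitochondria, and then from ornithine in the cytosol. The genes of the acetylated branch are ARG2 for acetylglutamate synthase, ARG7 for ornithine acetyltransferase and ARG8 for acetylornithine aminotransferase. ARG7 had the smallest adjusted p of all members. The ARG7 signals in ρ0 cells were 226, 242 and 207 without glucose and 161, 200.4 and 162 with glucose. ARG7 signals in ρ+ cells were 102, 86.2 and 74.9 without glucose and 109, 106 and 90.4 with glucose. The ρ0 arrays lay above the ρ+ arrays under both conditions, and the highest values were those without glucose. ARG7 was 2.56-fold higher in ρ0 without glucose (log2 1.35 ± 0.17, adjusted p = 4.59e-05) and 1.70-fold higher in glucose (log2 0.76 ± 0.17, adjusted p = 0.0153). The ARG2 signals in ρ0 cells were 45.6, 55.0 and 73.5 without glucose and 75.5, 50.4 and 84.1 with glucose. ARG2 signals in ρ+ cells were 47.7, 36.3 and 25.1 without glucose and 70.0, 75.7 and 79.1 with glucose. In ρ+ the glucose-free arrays all lay below those in glucose, and ARG2 fell by 1.05 ± 0.24 on the log2 scale (adjusted p = 0.00454). Without glucose ARG2 was higher in ρ0 by 0.67 ± 0.24 (adjusted p = 0.0494), although the groups overlapped. ARG8 was dim, at 12.4 to 24.2 over all arrays, and passed in no comparison.

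In the cytosolic branch, ARG3 encodes ornithine carbamoyltransferase, ARG1 argininosuccinate synthetase and ARG4 argininosuccinate lyase, while CPA1 encodes the small subunit of the carbamoyl phosphate synthetase that feeds it. The ARG4 signals in ρ0 cells were 1211, 1191 and 863 without glucose and 924, 1519 and 1005 with glucose. ARG4 signals in ρ+ cells were 582, 456 and 497 without glucose and 751, 765 and 864 with glucose. All ρ0 arrays were above all ρ+ arrays of the same condition, and the lowest group was ρ+ without glucose. ARG4 was 2.11-fold higher in ρ0 there (log2 1.08 ± 0.19, adjusted p = 9.30e-04). It fell by 0.64 ± 0.19 in ρ+ upon withdrawal (adjusted p = 0.0208), a call lost without some single arrays (adjusted p up to 0.0809). The ARG3 signals in ρ0 cells were 11.1, 16.6 and 15.5 without glucose and 17.7, 15.1 and 19.4 with glucose. ARG3 signals in ρ+ cells were 23.5, 14.5 and 28.2 without glucose and 47.5, 36.1 and 40.6 with glucose. The ρ+ glucose arrays were the highest and overlapped with no other group. ARG3 was 2.27-fold lower in ρ0 in glucose (log2 −1.18 ± 0.23, adjusted p = 0.00684) and fell by 0.90 ± 0.23 in ρ+ upon withdrawal (adjusted p = 0.00778). With scaling to the poly-A controls neither call passed (adjusted p = 0.0503 and 0.0824). ARG1 and CPA1 passed in no comparison, with differences over the 5 comparisons between −0.21 and 0.43 for ARG1 and between −0.29 and 0.41 for CPA1.

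Histidine synthesis starts from phosphoribosyl pyrophosphate and ATP. HIS1 encodes the phosphoribosyltransferase of the first step, HIS4 an enzyme with several activities, HIS7 imidazole glycerol phosphate synthase and HIS5 histidinol phosphate aminotransferase. Without glucose the ρ0 arrays lay above the ρ+ arrays for 6 of the 6 histidine genes, and 4 passed the test, against 31.4% and 20.6% of all genes. The HIS1 signals in ρ0 cells were 726, 799.6 and 677 without glucose and 802, 1158 and 913 with glucose. HIS1 signals in ρ+ cells were 475, 450.3 and 409 without glucose and 931, 909 and 878 with glucose. HIS1 was lowest in ρ+ without glucose, where it fell by 1.03 ± 0.15 on the log2 scale (adjusted p = 1.89e-04). It was 1.65-fold higher in ρ0 without glucose (log2 0.72 ± 0.15, adjusted p = 0.00313), with a difference near 0 in glucose (0.06 ± 0.15). The fall of HIS1 in ρ+ passed without each array and under all 3 other scalings. The HIS5 signals in ρ0 cells were 186, 132 and 137 without glucose and 183, 129.9 and 179.7 with glucose. HIS5 signals in ρ+ cells were 81.1, 87.5 and 66.5 without glucose and 112, 121 and 124 with glucose. HIS5 was likewise lowest in ρ+ without glucose, and was 1.91-fold higher in ρ0 there (log2 0.94 ± 0.19, adjusted p = 0.00232). It fell by 0.60 ± 0.19 in ρ+ (adjusted p = 0.0249, up to 0.0988 without a single array). The HIS4 signals in ρ0 cells were 1006, 1169.8 and 828 without glucose and 895, 1222 and 631 with glucose. HIS4 signals in ρ+ cells were 580.2, 562 and 520.4 without glucose and 628, 599.6 and 638 with glucose. The HIS4 arrays of ρ+ cells stayed within a narrow range, and those of ρ0 cells were wider. HIS4 was 1.79-fold higher in ρ0 without glucose (adjusted p = 0.00664), and the difference in glucose was 0.51 ± 0.20 (adjusted p = 0.134). The HIS7 signals in ρ0 cells were 91.0, 106 and 114 without glucose and 122, 102 and 123 with glucose. HIS7 signals in ρ+ cells were 69.2, 62.6 and 56.7 without glucose and 65.9, 82.7 and 56.2 with glucose. HIS7 was higher in ρ0 under both conditions, by 0.71 ± 0.18 without glucose (adjusted p = 0.00881) and by 0.76 ± 0.18 in glucose (adjusted p = 0.0202). HIS2 and HIS6, for a phosphatase and an isomerase of the pathway, passed in no comparison.

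**Figure D3:**
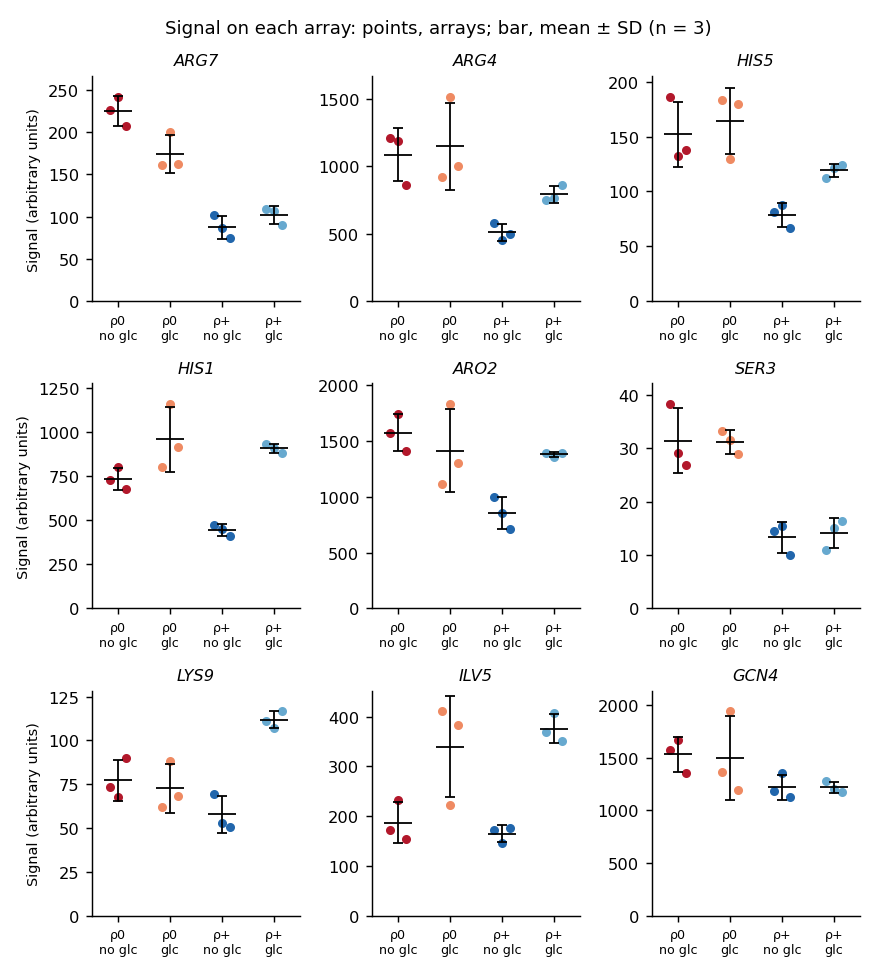
Signal on each array (vertical axis, arbitrary units, from 0) of 9 members in the 4 groups, with points for arrays and bars for the mean ± SD of 3 arrays. ARG7 and SER3 separate the strains under both conditions, HIS1, HIS5, ARO2 and LYS9 have their lowest mean in ρ+ without glucose, ILV5 has a lower mean without glucose in both strains, and GCN4 overlaps throughout.

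Lysine is made from 2-oxoglutarate and acetyl-CoA by way of homocitrate and aminoadipate. LYS2, for the aminoadipate reductase, was higher in ρ0. The LYS2 signals in ρ0 cells were 179, 278 and 199 without glucose and 223, 208 and 151 with glucose. LYS2 signals in ρ+ cells were 147, 143 and 87.5 without glucose and 108, 90.9 and 57.3 with glucose. The ρ0 arrays lay above the ρ+ arrays under both conditions, and the lowest mean was that of ρ+ in glucose. LYS2 differed by 1.20 ± 0.26 in glucose (adjusted p = 0.0141) and by 0.80 ± 0.26 without it (adjusted p = 0.0327). LYS9, for the saccharopine dehydrogenase that forms saccharopine, fell in ρ+. The LYS9 signals in ρ0 cells were 73.3, 68.0 and 90.1 without glucose and 61.8, 88.5 and 68.0 with glucose. LYS9 signals in ρ+ cells were 69.6, 52.9 and 50.7 without glucose and 111, 107 and 117 with glucose. The ρ+ glucose arrays were above all other arrays, and ρ+ without glucose had the lowest mean. LYS9 fell by 0.95 ± 0.19 in ρ+ (adjusted p = 0.00156), and its difference in ρ0 was 0.09 ± 0.19 (adjusted p = 0.777). The responses differed by 1.03 ± 0.26 (adjusted p = 0.026), a call lost without some single arrays (adjusted p up to 0.0703). LYS12, for homoisocitrate dehydrogenase, was higher in ρ0 without glucose by 0.58 ± 0.16 (adjusted p = 0.0147). LYS1, for the last step, rose by 0.83 ± 0.25 in ρ0 upon withdrawal (adjusted p = 0.0356), with group means of 246 ± 105 and 131 ± 22.4 without and with glucose (SD, n = 3), a call lost without some single arrays (adjusted p up to 0.165). LYS4, for homoaconitase, passed in no comparison, with −0.32 ± 0.22 between ρ0 and ρ+ without glucose.

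The aromatic amino acids share the path to chorismate, to which ARO1, one protein with several activities, and ARO2, chorismate synthase, belong. The ARO2 signals in ρ0 cells were 1572, 1742 and 1416 without glucose and 1112, 1835 and 1301 with glucose. ARO2 signals in ρ+ cells were 996, 857 and 714 without glucose and 1397, 1355 and 1392 with glucose. The ρ0 groups overlapped with each other, the ρ+ glucose arrays were tightly grouped, and ρ+ without glucose was below all of them. ARO2 fell by 0.70 ± 0.18 in ρ+ (adjusted p = 0.00766) and was 1.85-fold higher in ρ0 without glucose (log2 0.89 ± 0.18, adjusted p = 0.00208). Its responses differed by 0.89 ± 0.25 (adjusted p = 0.0463, up to 0.114 without a single array). The ARO1 signals in ρ0 cells were 980.2, 1139 and 905 without glucose and 659, 1053 and 527 with glucose. ARO1 signals in ρ+ cells were 608, 636 and 544 without glucose and 397, 499 and 466 with glucose. ARO1 was higher in ρ0 without glucose by 0.75 ± 0.21 (adjusted p = 0.0146), and its difference in glucose, 0.66 ± 0.21, did not pass (adjusted p = 0.068) although the arrays did not overlap. ARO7, chorismate mutase of the phenylalanine and tyrosine branch, fell upon withdrawal in both strains. The ARO7 signals in ρ0 cells were 23.5, 45.6 and 55.3 without glucose and 61.1, 59.5 and 95.7 with glucose. ARO7 signals in ρ+ cells were 53.1, 48.2 and 48.2 without glucose and 97.6, 113 and 129.7 with glucose. Glucose-free arrays lay below the glucose arrays within each strain, and all ρ+ glucose arrays lay above all others. ARO7 fell by 0.82 ± 0.26 in ρ0 (adjusted p = 0.0426) and by 1.15 ± 0.26 in ρ+ (adjusted p = 0.00409).

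In the tryptophan branch, TRP2 and TRP3 encode the subunits of anthranilate synthase, TRP4 the anthranilate phosphoribosyltransferase and TRP5 tryptophan synthase. TRP5 rose by 0.79 ± 0.24 in ρ+ upon withdrawal (adjusted p = 0.0185), to 1232 ± 150.1 without glucose against 711 ± 84.0 in glucose (SD, n = 3). In ρ0 its value was 0.68 ± 0.24 (adjusted p = 0.0573), with means of 1709 ± 275 and 1117 ± 457. TRP2 and TRP4 were higher in ρ0 without glucose, by 0.82 ± 0.24 and 0.68 ± 0.23 (adjusted p = 0.02 and 0.0346). TRP3 passed in no comparison. Of the 9 aromatic genes, 1 thus rose, 2 fell and 6 did not pass after withdrawal in ρ+, where 10.5% of all genes rose and 22.3% fell. Without glucose 4 were higher in ρ0, against 20.6% of all genes.

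Isoleucine, valine and leucine share mitochondrial enzymes. ILV5, the reductoisomerase of the common path, which is also known to bind mitochondrial DNA, was low without glucose. The ILV5 signals in ρ0 cells were 171, 233 and 155 without glucose and 411, 223 and 384 with glucose. ILV5 signals in ρ+ cells were 173, 146 and 177 without glucose and 369.8, 407 and 350.2 with glucose. In ρ+ the glucose-free arrays were all below the glucose arrays, whereas in ρ0 the glucose array of replicate 2 lay among the glucose-free values. ILV5 fell by 1.18 ± 0.22 in ρ+ (adjusted p = 0.00111) and by 0.83 ± 0.22 in ρ0 (adjusted p = 0.0186). It did not pass between the strains, with 0.16 ± 0.22 without glucose and −0.19 ± 0.22 in glucose. ILV1, threonine deaminase at the entry to isoleucine, was higher in ρ0 without glucose. The ILV1 signals in ρ0 cells were 400.1, 473 and 429 without glucose and 352, 397 and 336 with glucose. ILV1 signals in ρ+ cells were 305, 274 and 102 without glucose and 358, 365 and 325 with glucose. The ρ+ glucose-free array of replicate 3 was far below the other 11. Its difference between the strains was 1.08 ± 0.29 (adjusted p = 0.0129). Without that array it was 0.58 (adjusted p = 0.0246). ILV6, the regulatory subunit of acetolactate synthase, was also higher in ρ0 without glucose (0.87 ± 0.28, adjusted p = 0.0286), while ILV2 for the catalytic subunit had 0.29 ± 0.20 (adjusted p = 0.277). ILV3, for the dihydroxyacid dehydratase, passed in no comparison.

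Serine is made from 3-phosphoglycerate by Ser3 or Ser33, Ser1 and Ser2. SER3 differed between the strains. The SER3 signals in ρ0 cells were 38.4, 29.2 and 26.9 without glucose and 33.3, 31.6 and 28.9 with glucose. SER3 signals in ρ+ cells were 14.6, 15.4 and 10.0 without glucose and 11.0, 15.04 and 16.3 with glucose. The ρ0 arrays of SER3 were all above the ρ+ arrays, and withdrawal gave no difference that passed in either strain. SER3 was 2.23-fold higher in ρ0 without glucose (log2 1.16 ± 0.21, adjusted p = 8.87e-04) and 2.11-fold higher in glucose (log2 1.08 ± 0.21, adjusted p = 0.00602). Both calls passed without each array and under all 3 other scalings. SER2, for the phosphatase of the last step, fell in ρ+. The SER2 signals in ρ0 cells were 73.9, 54.8 and 71.3 without glucose and 70.8, 79.8 and 85.3 with glucose. SER2 signals in ρ+ cells were 68.6, 61.7 and 48.04 without glucose and 94.1, 108 and 100.3 with glucose. Its glucose arrays in ρ+ were above all others. SER2 fell by 0.76 ± 0.18 in ρ+ (adjusted p = 0.00527), and the value in ρ0 was −0.24 ± 0.18 (adjusted p = 0.38). SER1 passed in no comparison.

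The aspartate family leads through aspartate kinase (HOM3), aspartate semialdehyde dehydrogenase (HOM2) and homoserine dehydrogenase (HOM6) to homoserine, and by homoserine kinase (THR1) and threonine synthase (THR4) to threonine. The HOM3 signals in ρ0 cells were 127, 128 and 101 without glucose and 122, 129 and 99.7 with glucose. HOM3 signals in ρ+ cells were 82.0, 66.3 and 66.6 without glucose and 114, 106 and 101 with glucose. HOM3 had its lowest values in ρ+ without glucose, below every array of the other groups. It fell by 0.57 ± 0.17 in ρ+ (adjusted p = 0.0191) and was 1.64-fold higher in ρ0 without glucose (log2 0.71 ± 0.17, adjusted p = 0.00658). The THR1 signals in ρ0 cells were 989.8, 1123 and 850.4 without glucose and 541, 943 and 554 with glucose. THR1 signals in ρ+ cells were 647, 634 and 313 without glucose and 732, 819 and 783 with glucose. The ρ0 values with glucose overlapped with every other group. THR1 was higher in ρ0 without glucose by 0.96 ± 0.26 (adjusted p = 0.0129), and the difference of its responses, 1.20 ± 0.37, did not pass (adjusted p = 0.0595). THR4 was higher in ρ0 without glucose by 0.55 ± 0.18 (adjusted p = 0.034). HOM2 and HOM6 passed in no comparison, and their differences lay between −0.19 and 0.42 and between −0.18 and 0.36.

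**Figure D4:**
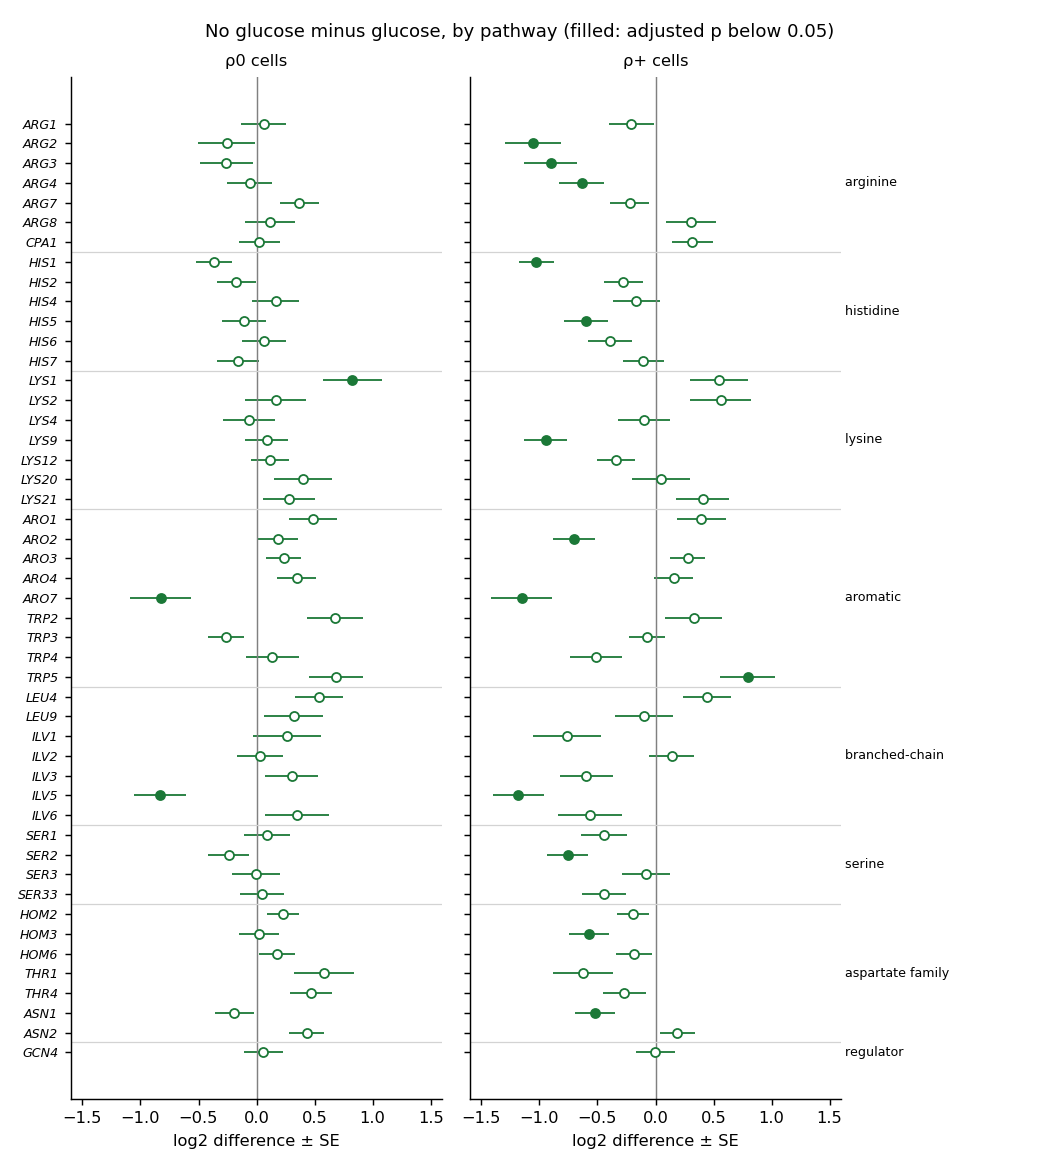
Log2 difference of no glucose minus glucose (horizontal axis, ± SE) for each of the 48 members, by pathway, in ρ0 cells on the left and ρ+ cells on the right. Filled points passed an adjusted p of 0.05: 3 in ρ0 and 13 in ρ+, of which 12 are below 0.

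Of the 20 members that were higher in ρ0 without glucose, 11 passed without each of the 12 arrays: ARG4, ARG7, HIS1, HIS4, HIS5, HIS7, ARO2, LEU4, ILV1, SER3 and HOM3. Likewise 5 of the 20 passed under quantile normalization, median centring and poly-A scaling alike, and these were ARG4, ARG7, HIS5, ARO2 and SER3. Of the 13 calls after withdrawal in ρ+, 8 passed without each array and 4 under the 3 scalings, with HIS1, LYS9 and ILV5 in both. In glucose 2 of the 5 calls between the strains passed without each array, ARG3 and SER3, and of the 3 calls after withdrawal in ρ0 none did. The share of all called genes that held in these ways was not counted, so these counts describe the members alone.

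Several steps are encoded by a pair of genes whose products do the same reaction. SER33 is the partner of SER3. The SER33 signals in ρ0 cells were 63.5, 51.5 and 58.3 without glucose and 54.6, 58.1 and 54.6 with glucose. SER33 signals in ρ+ cells were 66.9, 59.3 and 38.8 without glucose and 74.1, 74.8 and 71.9 with glucose. In glucose the ρ0 arrays of SER33 lay below the ρ+ arrays, the opposite of SER3, but the difference of −0.39 ± 0.19 did not pass (adjusted p = 0.222). The log2 ratio of SER3 to SER33 within an array was −0.81 ± 0.10 in ρ0 and −2.28 ± 0.28 in ρ+ in glucose (SD, n = 3), and −0.86 ± 0.20 and −1.91 ± 0.15 without glucose, with no overlap in either case. For each the exact permutation p was 0.1 (two-sided), the smallest that 3 against 3 arrays allow, and 0.25 after adjustment over 20 comparisons of isozyme ratios. LEU4 and LEU9 encode isopropylmalate synthases, at the start of leucine synthesis. The LEU4 signals in ρ0 cells were 1331, 2385 and 1886 without glucose and 1493, 1086 and 1204 with glucose. LEU4 signals in ρ+ cells were 1095, 1187 and 864 without glucose and 862, 804 and 641 with glucose. LEU4 was higher in ρ0 without glucose by 0.80 ± 0.21 (adjusted p = 0.00957). The LEU9 signals in ρ0 cells were 99.8, 86.8 and 75.0 without glucose and 72.1, 93.4 and 48.9 with glucose. LEU9 signals in ρ+ cells were 88.9, 87.7 and 56.5 without glucose and 109, 74.4 and 66.9 with glucose. The LEU9 groups overlapped in every comparison. The log2 ratio of LEU4 to LEU9 was 4.15 ± 0.56 in ρ0 and 3.20 ± 0.22 in ρ+ in glucose, without overlap (exact permutation p = 0.1). Without glucose the ratios, 4.37 ± 0.57 in ρ0 and 3.75 ± 0.15 in ρ+, overlapped (exact permutation p = 0.3).

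ASN1 and ASN2 encode asparagine synthetases. The ASN1 signals in ρ0 cells were 295, 271 and 326 without glucose and 371, 276 and 378 with glucose. ASN1 signals in ρ+ cells were 216, 268 and 285 without glucose and 362, 388 and 349.8 with glucose. Without glucose ρ+ cells had less ASN1 signal on every array than with it. ASN1 fell by 0.52 ± 0.17 in ρ+ (adjusted p = 0.0287). The ASN2 signals in ρ0 cells were 820.1, 892 and 779 without glucose and 633, 729.8 and 501 with glucose. ASN2 signals in ρ+ cells were 824, 889.6 and 938 without glucose and 778, 767 and 781 with glucose. All glucose-free arrays of ASN2 lay above the glucose arrays in each strain, without passing the test (0.43 ± 0.15 in ρ0 and 0.19 ± 0.15 in ρ+, adjusted p = 0.0605 and 0.364). The log2 ratio of ASN1 to ASN2 was −1.79 ± 0.12 in ρ+ without glucose and −1.08 ± 0.09 in glucose, without overlap (exact permutation p = 0.1). In ρ0 the ratios, −1.48 ± 0.23 without glucose and −0.86 ± 0.50 in glucose, overlapped (exact permutation p = 0.2). The homocitrate synthases LYS20 and LYS21 passed in no comparison. The LYS20 signals in ρ0 cells were 502, 663 and 356 without glucose and 345, 544 and 274 with glucose. LYS20 signals in ρ+ cells were 372, 316 and 388 without glucose and 407, 297 and 344 with glucose. The highest LYS20 values were in ρ0, with a wide spread. The LYS21 signals in ρ0 cells were 343, 362 and 248 without glucose and 275, 345 and 181 with glucose. LYS21 signals in ρ+ cells were 259.9, 257 and 202 without glucose and 210.2, 169 and 163 with glucose. LYS21 overlapped between the groups in every comparison, as did LYS20. ARO3 and ARO4, the DAHP synthases that open the aromatic path and are known to be inhibited by phenylalanine (Aro3) and tyrosine (Aro4), also passed in no comparison. The ARO3 signals in ρ0 cells were 811, 904 and 848 without glucose and 701, 855 and 637 with glucose. ARO3 signals in ρ+ cells were 649, 722 and 597 without glucose and 597, 508 and 516 with glucose. For ARO3 the ρ0 arrays lay above the ρ+ arrays under both conditions, by 0.38 ± 0.15 without glucose and 0.43 ± 0.15 in glucose (adjusted p = 0.0666 and 0.0985). The ARO4 signals in ρ0 cells were 862, 1099 and 816 without glucose and 785, 783 and 610.4 with glucose. ARO4 signals in ρ+ cells were 793, 839.6 and 642 without glucose and 751, 666 and 616 with glucose. The ρ0 arrays of ARO4 without glucose lay above those in glucose, without passing (0.35 ± 0.17, adjusted p = 0.169). Of the 20 isozyme comparisons, 8 had groups without overlap, and none passed after adjustment, which the smallest possible p did not allow.

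**Figure D5:**
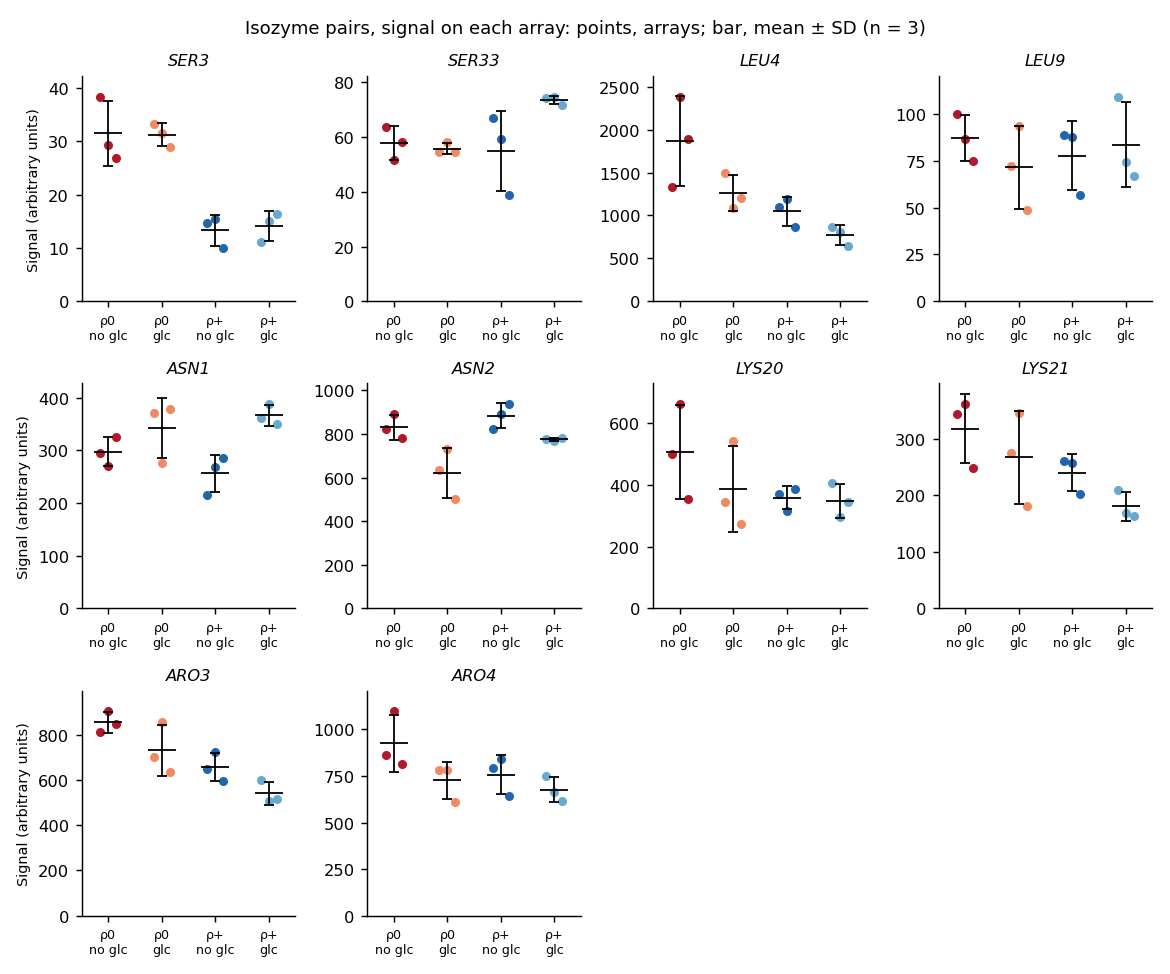
Signal on each array (vertical axis, arbitrary units, from 0) of 5 pairs of isozyme genes in the 4 groups, with points for arrays and bars for the mean ± SD of 3 arrays. SER3 is higher on every ρ0 array than on every ρ+ array, while SER33 is lower in ρ0 in glucose, and in ρ+ without glucose ASN1 lies below and ASN2 above the values in glucose.

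Many members had their extreme value on the same array of a group. Of the 48 members, 29 were highest on the array of replicate 2 among the ρ0 glucose-free arrays, against 31.5% of all genes (60.4% of the members). Among the ρ0 glucose arrays it was again 29 on replicate 2, against 39.2% of all genes. In ρ+ without glucose 33 members were lowest on replicate 3 (68.8%, against 34.4% of all genes). Replicate 3 also most often held the lowest value in the other groups. It did so for 62.5% of the members in ρ0 without glucose, against 33.2% of all genes. In glucose it did so for 50% in ρ0 and 47.9% in ρ+, against 30.7% and 34.3%. Without both ρ0 arrays of lowest hybridization control, 19 members were higher in ρ0 without glucose and 0 lower (18.1% and 8.97% of all genes). With these arrays left out, 5 members rose and 1 fell after withdrawal in ρ0 (4.23% and 9.48%), and 5 had a higher response in ρ0 (1.57%). Without the ρ0 glucose array of replicate 2 alone, 8 members rose and 2 fell after withdrawal in ρ0 (6.62% and 14.3%). In that fit 18 fell in ρ+ (25.3%), and 7 had a higher response in ρ0 (2.5%).

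Other genes around these pathways were counted by lists. Of 28 further genes of amino acid synthesis tested, of 30 listed, 5 were higher and 1 lower in ρ0 than in ρ+ without glucose, with a median of 0.27, against 20.6% and 9.4% of all genes and their median of 0.21. Among the higher ones the 3 with the largest differences were AAT2 for the cytosolic aspartate aminotransferase (1.21 ± 0.14, adjusted p = 2.38e-05), LYS14 for an activator of lysine genes (0.91 ± 0.20, adjusted p = 0.00378) and PRO1 for the first step of proline synthesis (0.72 ± 0.22, adjusted p = 0.0251). The lower one was BAT2, the cytosolic branched-chain aminotransferase, which also acts in breakdown. The BAT2 signals in ρ0 cells were 110.0, 112 and 117 without glucose and 114, 75.5 and 82.3 with glucose. BAT2 signals in ρ+ cells were 483, 287 and 372 without glucose and 100, 94.0 and 103 with glucose. BAT2 was higher on every ρ+ array without glucose than on any other array, and its difference between ρ0 and ρ+ there was −1.71 ± 0.20 (adjusted p = 2.26e-05). It rose 3.72-fold in ρ+ upon withdrawal (log2 1.89 ± 0.20, adjusted p = 7.54e-06), and the response in ρ0 was lower by 1.56 ± 0.28 (adjusted p = 0.00298).

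Of 19 genes that act on GCN4 or its product, 5 were higher and 1 lower in ρ0 without glucose, with a median of 0.36, against the same 20.6%, 9.4% and 0.21 for all genes. GCN2, the kinase that raises GCN4 translation, was among the higher ones (0.85 ± 0.25, adjusted p = 0.0176), as was GCN5, a histone acetyltransferase that serves as a coactivator of Gcn4 (1.02 ± 0.23, adjusted p = 0.00519), and GCD10, for a tRNA methyltransferase subunit whose mutants derepress GCN4 (0.52 ± 0.17, adjusted p = 0.0284). CDC34, for the ubiquitin-conjugating enzyme that takes part in Gcn4 breakdown, was lower (−0.94 ± 0.26, adjusted p = 0.0151) and rose by 1.44 ± 0.26 in ρ+ upon withdrawal (adjusted p = 9.19e-04). SUI2, for the subunit of eIF2 that Gcn2 phosphorylates, rose by 0.92 ± 0.21 in ρ0 (adjusted p = 0.00923), with a response that was higher than in ρ+ by 1.35 ± 0.30 (adjusted p = 0.012). In glucose SUI2 was lower in ρ0 than in ρ+ (−0.81 ± 0.21, adjusted p = 0.033).

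Of 21 genes for aminoacyl-tRNA synthetases, which load tRNAs with amino acids, 5 rose and 0 fell after withdrawal in ρ0, with a median of 0.42, against 4.59% and 12.4% of all genes and their median of −0.11. CDC60 for leucine, DPS1 for aspartate and GLN4 for glutamine rose by 0.83 ± 0.22, 0.85 ± 0.23 and 0.73 ± 0.23 (adjusted p = 0.0176, 0.0177 and 0.044). In ρ+, where 10.5% of all genes rose and 22.3% fell, 1 of these genes rose, DPS1, and 3 fell, among them TYS1 for tyrosine (−1.23 ± 0.24, adjusted p = 0.00133). Between the strains without glucose, 3 of the 21 (14.3%) were higher in ρ0 and 0 lower, against 20.6% and 9.4% of all genes. Their median there was 0.42, against 0.21 for all genes. In glucose 0 were higher and 0 lower, against 5.0% and 1.45%.

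Of 14 other genes known as Gcn4 targets, 5 were higher and 0 lower in ρ0 without glucose, against 20.6% and 9.4% of all genes, and likewise 5 and 0 in glucose, against 5.0% and 1.45%. SNZ1, SNO1 and GCV1 had the largest differences under both conditions. SNZ1 and SNO1 act in vitamin B6 synthesis, and GCV1 encodes a subunit of the glycine decarboxylase of mitochondria. The SNO1 signals in ρ0 cells were 57.4, 62.0 and 74.7 without glucose and 64.9, 74.3 and 69.5 with glucose. SNO1 signals in ρ+ cells were 16.8, 17.7 and 22.0 without glucose and 13.2, 14.9 and 15.4 with glucose. Every ρ0 array was above every ρ+ array, and SNO1 was 3.25-fold higher without glucose (log2 1.70 ± 0.17, adjusted p = 4.14e-06) and 4.45-fold higher in glucose (log2 2.15 ± 0.17, adjusted p = 2.03e-06). The SNZ1 signals in ρ0 cells were 183, 209 and 195 without glucose and 154, 243 and 187 with glucose. SNZ1 signals in ρ+ cells were 65.9, 56.3 and 53.6 without glucose and 69.1, 62.2 and 51.6 with glucose. For SNZ1 too every ρ0 array was above every ρ+ array, by 1.72 ± 0.19 without glucose and 1.64 ± 0.19 in glucose (adjusted p = 1.17e-05 and 6.90e-05). GCV1 differed by 2.00 ± 0.19 without glucose and 1.43 ± 0.19 in glucose (adjusted p = 3.52e-06 and 3.62e-04). Among the 48 members the largest differences were those of ARG7 without glucose and LYS2 in glucose, given above. The lists were not tested as sets.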

How the data were processed

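The deposited values are, per the labels, array intensity values, 1 signal per probe set on a linear scale, summarised by MAS5, a tool named in the submitters' processing notes. The sources used here give no version, scaling target or genome build. Trimmed means (2% at each end) of the deposited signals were 100.1 on every array. Probe sets annotated to 1 gene were used (6504 of 9335; 328 had several genes and 2503 none), and for each gene the brightest was kept. The number of arrays limits the precision.

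From these, log2(signal + 1.50) was computed, 1.50 being the 10th percentile of all signals, so that fold changes of dim genes are understated. Genes with a group mean above the 25th percentile were tested with limma 3.58.1 in R 4.3.3: a model of 4 group means over all 12 arrays, eBayes with an intensity trend, and Benjamini-Hochberg adjustment over 5361 genes at a threshold of 0.05. The model was also run on simulated data with known changes, for every comparison but ρ0 against ρ+ without glucose. The simulated noise was independent between arrays, and the outcome is not given here. P-values measure the spread between arrays labelled as biological replicates. Isozyme ratios were compared by an exact permutation test.

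The 48 members and the other lists were chosen with earlier results of these data known, so no list was tested as a set. Signals on every array are given for GCN4, for 5 isozyme pairs and for the 20 members with the smallest adjusted p, and of each other list up to 3 genes per direction and comparison are named. Alternatives covered the pseudocount, filter, floor, normalization, probe set choice, samples in the fit, variance model, replicate block and each array left out. Promoter and protein sequences were not used here, and a planned motif count was not run.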

Additional observations from a re-analysis of the deposited data

Results flagged for a closer look

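Both members whose response to glucose withdrawal differed between ρ0 and ρ+ by the interaction test stand out. For LYS9 the response was 1.03 higher in ρ0 on the log2 scale, with 0.09 ± 0.19 (SE) in ρ0 and −0.95 ± 0.19 in ρ+. For ARO2 it was 0.89 higher in ρ0, with 0.18 ± 0.18 in ρ0 and −0.70 ± 0.18 in ρ+. Neither difference passed with scaling to the poly-A controls. Both were also lost without the ρ0 glucose array of replicate 1 or of replicate 3. The same held without the ρ+ glucose-free array of replicate 2 or 3, and without any 1 of the ρ+ glucose arrays. With median centring 1 of the 2 was lost. Likewise 1 was lost without the intensity trend, and without the ρ0 glucose-free array of replicate 1 or 2. The cause of the differences was not tested.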

How the results depend on the processing

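No member that passed a comparison changed sign under any alternative run, and the medians of the members relative to all genes moved by less than their spread between arrays when single arrays were left out. Over single members, 5387 alternative values kept their side of the threshold and sign, 118 passed only under the alternative, 164 no longer passed, and 187 that passed in neither setting changed sign. Pseudocount, filter, floor and the mean over probe sets moved no count by over 1.5 times. Each member had a single probe set and exceeded the detection level on every array. Filter, floor and the mean over probe sets thus altered no member's signal and tested the members little. Other scalings shifted the median of all genes by up to 0.256 on the log2 scale. After withdrawal in ρ0, 2 members were higher with quantile normalization (6.55% of all genes), 6 with median centring (8.28%) and 0 with poly-A scaling (1.14%). With centring 0 were lower (7.13%), and with poly-A scaling 1 was (7.7%). After withdrawal in ρ+, centring gave 3 higher (15.1%) and 7 lower (10.2%), and poly-A scaling 3 lower (5.35%). For ρ0 against ρ+ in glucose, centring gave 2 higher (2.2%). There 2 were lower with quantile normalization (2.2%) or centring (2.98%), and 0 with poly-A scaling (0.28%). Without glucose, 8 were higher with centring (8.24%) and 5 with poly-A scaling (5.28%), and 1 was lower with quantile normalization (11.2%) or centring (13.8%). The response was higher in ρ0 for 1 with centring (1.18%) and 0 with poly-A scaling (0.056%). A fit to the 2 groups alone gave 0 higher (1.6%) and 0 lower (6.17%) after withdrawal in ρ0, and 4 higher in ρ+ (13.5%). Without the intensity trend, 1 was lower after withdrawal in ρ0 (11.8%) and 1 had a higher response (1.18%). Without both ρ0 arrays of lowest hybridization control, 5 were higher (4.23%) and 1 lower (9.48%) after withdrawal in ρ0, and 3 higher in ρ+ (12.2%). In that fit 2 were lower in ρ0 than in ρ+ in glucose (1.36%), and 5 had a higher response (1.57%). The shares of all genes moved with these settings too, such as those higher in ρ0 without glucose, from 20.6% to 8.24% with centring. The causes were not tested.

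Replicate numbers are shared between groups, and the protocols do not say that they mark a shared culture. Deviations of same-numbered arrays from their group means correlated between 0.00 and 0.520 in ρ0 and between −0.0255 and 0.107 in ρ+. Between ρ0 and ρ+ they correlated between −0.0765 and 0.117 without glucose and between −0.114 and 0.3405 in glucose. Across strain and condition the ranges were 0.1125 to 0.183 (ρ0 in glucose, ρ+ without) and −0.0224 to 0.2251 (ρ0 without, ρ+ in glucose). Differently numbered arrays correlated between −0.411 and 0.279 in ρ0 and between −0.0843 and 0.0572 in ρ+. Deviations from a mean of 3 arrays are tied to each other, so these correlations cannot settle whether the numbers mark pairs. The numbers were not taken as pairs, because nothing in the labels ties them to a culture. With the replicate block, 5 members were higher after withdrawal in ρ0 (6.49% of all genes). In ρ+ 2 were higher (11.9%) and 16 lower (24.9%). In ρ0 against ρ+, 7 were higher in glucose (7.13%) and 21 without it (23.8%). The response was higher for 4 (2.98%). With the replicate block within strain, 6 members were higher after withdrawal in ρ0 (6.85%) and 3 in ρ+ (11.8%), and 6 had a higher response (2.84%).

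With 1 array left out, members higher and lower after withdrawal in ρ0 numbered 0 to 8 and 0 to 2. Shares of all genes there were 2.05% to 6.62% and 6.72% to 14.3%. In ρ+ the members numbered 0 to 2 and 8 to 18, against 7.59% to 11.8% and 13.9% to 25.3% of all genes. For ρ0 against ρ+ in glucose they numbered 1 to 9 and 1 to 2, against 2.16% to 5.32% and 0.504% to 1.59%. Without glucose they numbered 12 to 22 and 0 to 1, against 13.1% to 23.5% and 7.31% to 10.6%. The response was higher in ρ0 for 0 to 7, against 0.597% to 2.5%.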
